A study of Mus musculus with 18 samples.

Results

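The genes described here were 8 members of the AP-1 and immediate early response, namely Fos, Fosb, Fosl2, Jun, Junb, Jund, Ier2 and Dusp1, out of 22180 genes measured with a row of a single gene symbol. They were selected by symbol with values of these same arrays known: Jun and Fos had stood out as higher on the arrays numbered 2 than on those numbered 1. The difference between the replicate numbers therefore chose the members, and it is described below without a test. All 8 members were found on the array. Jund had 2 rows and each other member 1, and for Jund the row with the higher mean over the arrays was used.

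AP-1 is a dimer of a Jun family protein with a Fos or Jun family partner, which binds DNA through a basic leucine zipper. The genes for several of its subunits, above all Fos, Fosb, Jun and Junb, are immediate early genes: they are switched on within minutes of receptor signalling, stress or tissue handling, before any new protein is made, and their transcripts decay quickly. In thymocytes the T-cell receptor reaches them through the MAP kinases during positive selection.

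Thymocytes came from the fetal thymus at E18.5, from wild-type (WT), Gli3+/- and Gli3-/- embryos on a C57BL/6 background. Gli3 is a transcription factor of the Hedgehog pathway, and the mutant allele was carried in all cells of the embryo, so that thymic stroma and thymocytes both carried it. Cells were sorted into CD69- DP (CD4+ CD8+, before the positive selection signal), CD69+ DP (CD4+ CD8+, after it) and SP4 (CD4+ CD8-). Each of the 9 groups of genotype and population had 2 arrays, 18 in all, whose labels carried the number 1 or 2. The labels do not say whether a number stood for an embryo, a litter or a day of sorting, or whether embryos were pooled. The p-values therefore measured the spread between these arrays, which may be technical in part or, outside WT, as a whole.

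Array medians lay between 59.3 and 65.8 in intensity units, and the number of arrays, 2 a group, limited the precision. Cd69 was at 92.0 to 220.3 in CD69- DP, 675 to 1416 in CD69+ DP and 539 to 894 in SP4. Cd8a was at 3822 to 4483 in CD69- DP and still at 1120 to 2689 in the SP4 arrays, so its transcript was not absent from cells sorted as CD8-. Xist was at 39.7 to 52.4 on the WT arrays numbered 1 and at 2726 or more on all others, while Eif2s3y, a Y-linked gene, was at 15.1 to 22.5 in Gli3-/- and at 229 or more in WT and Gli3+/-. Both genes were thus high on WT number 2 and on all Gli3+/- arrays, and sex and genotype cannot be told apart. The members' mean difference between numbers was positive in all 3 genotypes, except for Fosl2 in WT (-0.11). Xist differed between numbers by log2 +5.81 to +6.10 in WT and by -0.42 to +0.15 in the other genotypes. The WT arrays numbered 1 and those numbered 2 were thus not made from the same embryo or pool. Eif2s3y was lower on the number 2 array in all 9 groups. Its mean difference was -0.78 in Gli3+/-, beside -0.80 in WT and -0.24 in Gli3-/-. The means of the sex markers Kdm5d and Uty were also lower on number 2 in Gli3+/- (-1.02 and -1.11) and in WT (-1.07 and -0.88). In Gli3-/- they were at +0.16 and +0.15, from intensities of only 15.5 to 23.7 and 20.4 to 27.3. What part sex had in the members' difference was not tested.

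Promoter sequences of Fos, Jun, Junb and Dusp1 are shown first, because the results below turn on these members. Each is the stretch of 150 bases before the start of the gene, 5′ to 3′ on the strand of the gene, from RefSeq for GRCm38.p6, and a promoter was listed for 7 of the 8 members. Capitals mark a match, on either strand, to the cyclic AMP response element TGACGTCA, its core TGACG (which lies within it), the AP-1 element TGACTCA, its variant TGACATCA or the TATA box TATAAA.
Fos, chr12:85473740-85473889, plus strand: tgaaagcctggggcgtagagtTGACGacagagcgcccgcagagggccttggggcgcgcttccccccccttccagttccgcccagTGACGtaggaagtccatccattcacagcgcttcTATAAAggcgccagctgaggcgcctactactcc
Jun, chr4:95052223-95052372, minus strand: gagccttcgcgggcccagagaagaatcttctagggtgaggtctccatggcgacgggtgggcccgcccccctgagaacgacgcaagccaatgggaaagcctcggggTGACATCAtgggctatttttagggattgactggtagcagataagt
Junb, chr8:84978749-84978898, minus strand: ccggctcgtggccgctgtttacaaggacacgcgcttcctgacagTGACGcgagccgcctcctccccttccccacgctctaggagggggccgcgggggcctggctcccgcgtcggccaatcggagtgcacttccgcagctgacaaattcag
Dusp1, chr17:26508473-26508622, minus strand: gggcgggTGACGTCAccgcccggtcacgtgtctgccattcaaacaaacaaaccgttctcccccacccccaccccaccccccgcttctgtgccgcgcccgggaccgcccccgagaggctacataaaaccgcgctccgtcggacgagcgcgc
Over 250 bases before the start, TGACGTCA was found in 1 of the 7 promoters, Dusp1, where it lay 143 to 136 bases before the start, against 1.55% of 32851 mouse promoters of the same length. The core TGACG was found in 4 (Fos, Fosb, Junb and Dusp1), against 17.8%. For Fosb the listed start lies inside the span that RefSeq gives the gene, and so does this match, so it is not upstream of every start of Fosb. TGACATCA lay 45 to 38 bases before the start of Jun and in no other member, against 2.93%, and TATAAA lay 33 to 28 bases before the start of Fos alone, against 12.4%. TGACTCA was in 0 of the 7 (4.46% of all promoters) and the CArG box, the element of serum response factor, was also in 0 (1.47%). The GC box GGGCGG, not marked in the sequences, was in 5 of the 7 (32.7%). These are matches of letters and not measured binding sites. Sequence further than 250 bases upstream was not searched, so a count of 0 does not mean that a gene lacks the element.

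Fos encodes the founding Fos subunit, which has to pair with a Jun protein. For its intensity on arrays 1 and 2 in CD69- DP, WT gave 53.9 and 177, Gli3+/- gave 53.6 and 280.4, and Gli3-/- gave 82.7 and 154. In CD69+ DP, WT gave 47.9 and 311, Gli3+/- gave 58.4 and 456, and Gli3-/- gave 69.7 and 268. In SP4, WT gave 46.4 and 409, Gli3+/- gave 105 and 438, and Gli3-/- gave 57.6 and 397. Every array numbered 2 lay above every array numbered 1, with 105.2 the highest of the first kind and 154.2 the lowest of the second. On number 2 arrays Fos was lowest in CD69- DP in all 3 genotypes, whereas on number 1 arrays the populations overlapped.

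Fosb encodes a second Fos subunit with similar induction. In the order WT, Gli3+/- and Gli3-/-, Fosb intensity in CD69- DP was 52.8, 43.9 and 44.8 on number 1 and 90.2, 161 and 72.7 on number 2. The CD69+ DP arrays held 76.0, 50.2 and 67.4 on number 1 and 165, 251 and 116 on number 2. The SP4 arrays held 56.3, 69.0 and 58.9 on number 1 and 218, 384 and 239 on number 2. Within each group the number 2 array was higher, but the numbers overlapped over the whole series, since the lowest number 2 value (72.7) lay under the highest number 1 value (76.0). Fosl2, which encodes Fra-2, a Fos family protein that usually accumulates later, stayed between 89.6 and 140.0 on all 18 arrays. For its intensity on arrays 1 and 2 in CD69- DP, WT gave 99.5 and 108, Gli3+/- gave 92.6 and 107, and Gli3-/- gave 89.6 and 119.8. In CD69+ DP, WT gave 116 and 105, Gli3+/- gave 109.9 and 119, and Gli3-/- gave 113 and 108. In SP4, WT gave 138 and 111, Gli3+/- gave 98.2 and 140.0, and Gli3-/- gave 114 and 136. Fosl2 was higher on all number 2 arrays in CD69- DP and overlapped between the numbers in CD69+ DP and SP4.

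Jun encodes c-Jun, the subunit that can also pair with itself. In the order WT, Gli3+/- and Gli3-/-, Jun intensity in CD69- DP was 61.6, 85.8 and 81.2 on number 1 and 380.2, 397 and 302 on number 2. The CD69+ DP arrays held 62.9, 108 and 63.8 on number 1 and 456, 433 and 543 on number 2. The SP4 arrays held 62.6, 125 and 64.7 on number 1 and 588, 569 and 604 on number 2. No array numbered 1 exceeded 124.9 and no array numbered 2 fell under 301.7. Among number 1 arrays those of Gli3+/- were the highest in each population.

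Junb encodes a Jun protein that in other settings can oppose c-Jun. For its intensity on arrays 1 and 2 in CD69- DP, WT gave 112 and 166, Gli3+/- gave 139 and 221, and Gli3-/- gave 126 and 173. In CD69+ DP, WT gave 167 and 275, Gli3+/- gave 179.8 and 346, and Gli3-/- gave 154 and 248. In SP4, WT gave 165 and 339, Gli3+/- gave 184 and 358, and Gli3-/- gave 142 and 257. Within each genotype and number the CD69- DP array was the lowest of the 3 populations, so Junb followed both the population and the number.

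Jund encodes a Jun protein that most cells make without stimulation. In the order WT, Gli3+/- and Gli3-/-, Jund intensity in CD69- DP was 327, 278 and 357 on number 1 and 557, 556 and 449 on number 2. The CD69+ DP arrays held 299, 249.6 and 249 on number 1 and 566, 541 and 553 on number 2. The SP4 arrays held 394, 365 and 300.0 on number 1 and 775, 662 and 676 on number 2. All number 2 arrays lay above all number 1 arrays, with 393.7 and 448.6 the nearest values of either side. The second row for Jund, which was dimmer, ran from 187.0 to 230.8 on number 1 arrays and from 235.1 to 287.5 on number 2 arrays, also without overlap.

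Ier2 encodes a small nuclear protein of the immediate early class. For its intensity on arrays 1 and 2 in CD69- DP, WT gave 52.2 and 91.6, Gli3+/- gave 54.9 and 73.7, and Gli3-/- gave 41.7 and 75.9. In CD69+ DP, WT gave 121 and 128, Gli3+/- gave 69.7 and 110.4, and Gli3-/- gave 90.0 and 113. In SP4, WT gave 126 and 125, Gli3+/- gave 94.4 and 128, and Gli3-/- gave 78.6 and 141. The numbers overlapped, and in WT SP4 the number 1 array was marginally the higher. Dusp1 encodes MKP-1, a phosphatase that switches off the MAP kinases p38 and JNK, and so limits the signal that induces it. In the order WT, Gli3+/- and Gli3-/-, Dusp1 intensity in CD69- DP was 242, 253 and 289 on number 1 and 434, 538 and 519 on number 2. The CD69+ DP arrays held 239.6, 314 and 256 on number 1 and 587, 644 and 549 on number 2. The SP4 arrays held 283, 338 and 272 on number 1 and 727, 592 and 635 on number 2. The highest number 1 value, 338.0, lay under the lowest number 2 value, 434.3.

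**Figure D1:**
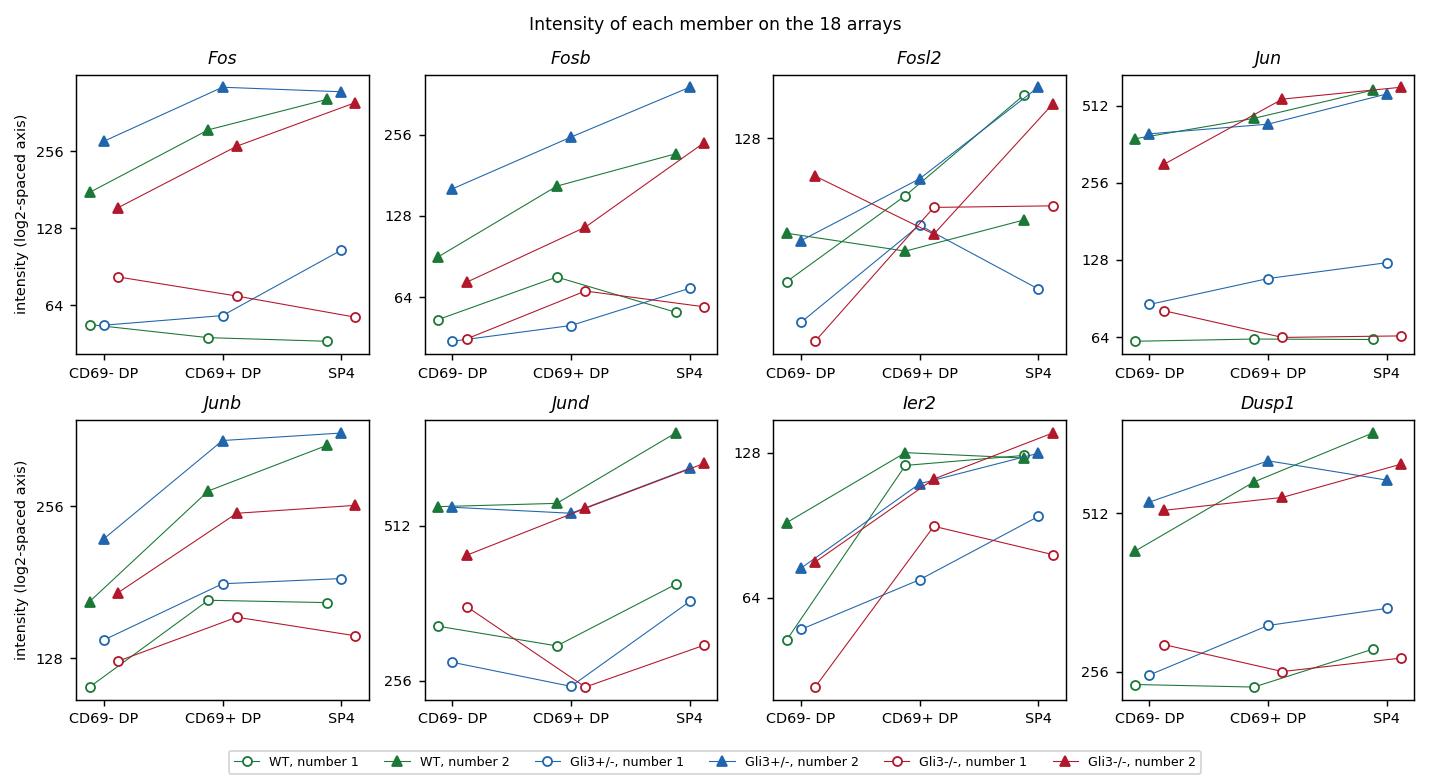
Intensity (log2-spaced axis) of the 8 members on all 18 arrays by sorted population, with genotype in colour, number 1 arrays as open circles and number 2 arrays as filled triangles. Lines join arrays of the same genotype and number. For Fos, Jun, Jund and Dusp1 the filled triangles all lie above the open circles, while Fosl2 and Ier2 overlap.

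The difference between the numbers, on which the members had been noticed, was largest for Jun. Its mean over the 9 groups was log2 +2.59 (SD 0.53, n = 9 groups, 6.03-fold), the highest of all 22180 genes. Fos followed at +2.29 (SD 0.71, 4.88-fold), the fourth highest, and Fosb was at +1.56 (SD 0.71). Dusp1 was at +1.07 (SD 0.20), Jund at +0.92 (SD 0.26) and Junb at +0.77 (SD 0.20). Ier2, at +0.49 (SD 0.33), was higher on number 2 arrays in 8 of 9 groups, and Fosl2, at +0.12 (SD 0.27), in 6 of 9. The other 6 members were higher on the number 2 array in all 9 groups, as were 4.21% of all genes, and 4 of the 8 did not overlap between the numbers at all, as for 0.442% of all genes. The median over the members was +0.99, beside -0.01 over all genes. Nothing about the members is read from these shares, because this contrast chose them.

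**Figure D2:**
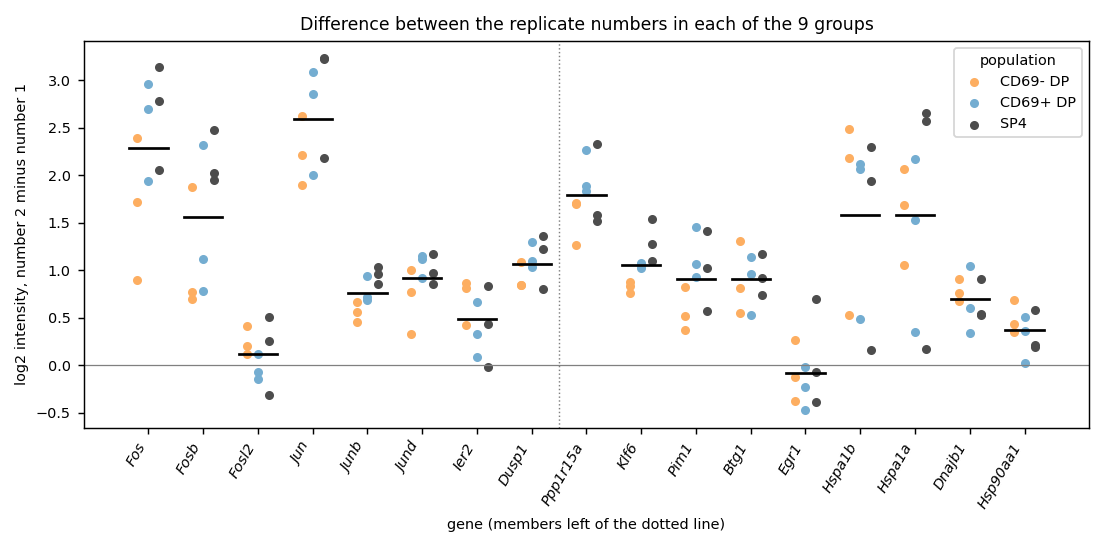
Difference in log2 intensity between the number 2 and the number 1 array of each of the 9 groups (points, coloured by population) and its mean (black line), for the 8 members and 9 genes of the wider lists. Jun (+2.59) and Fos (+2.29) have the largest means, Fosl2 (+0.12) lies near 0, and Egr1 (-0.08) differs in sign between groups.

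Among 34 other immediate early genes, a list also chosen with these results known, 13 were higher on the number 2 array in all 9 groups and 0 were lower in all 9, with a median of +0.28. Of all 22180 genes, 488 were lower in all 9. The largest differences were those of Ppp1r15a (+1.79), which encodes the stress-induced phosphatase subunit GADD34, Klf6 (+1.06), a zinc finger factor, Pim1 (+0.91), a kinase, and Btg1 (+0.90), an antiproliferative gene. The Egr and Nr4a genes of this list, grouped after their values were seen, lay on both sides of 0. Egr1 was at -0.08 (higher on number 2 in 2 of 9 groups), Egr2 at -0.19 (4 of 9) and Egr3 at +0.01 (5 of 9), and Nr4a1 was at -0.19 (3 of 9), Nr4a2 at +0.25 (8 of 9) and Nr4a3 at -0.38 (3 of 9). Of 11 measured AP-1 related bZIP genes, 2 were higher in all 9 groups (Maf +0.75 and Maff +0.34) and 1, Atf2 (-0.20), was lower in all 9. Of 18 measured genes of the MAP kinase and serum response arm, 1 was higher in all 9 groups (Map2k3, +0.49) and 1 lower in all 9 (Map3k1, -0.15, named after its values were seen), and of 9 other dual specificity phosphatases 1 was higher in all 9 (Dusp10, +0.33). Heat shock genes were divided, with 4 of 10 higher in all 9 groups. Hspa1b (+1.59) and Hspa1a (+1.58), the inducible forms of Hsp70, and Dnajb1 (+0.70) and Hsp90aa1 (+0.37) were the 4, while the median of the list was +0.12.

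Of the number 1 arrays, Gli3+/- SP4 held the highest value of 4 members (Fos, Jun, Junb and Dusp1), WT SP4 that of 3 (Fosl2, Jund and Ier2) and WT CD69+ DP that of Fosb. The heat shock genes Hspa1a and Hspa1b differed less between the numbers in Gli3+/- (+0.53 and +0.40, mean over the 3 populations) than in WT (+1.93 and +2.30) or Gli3-/- (+2.30 and +2.06), a difference given without a test. Their Gli3+/- SP4 array numbered 1 was at 745.6 and 1109, against 181.2 and 234.0 on the WT SP4 array of that number.

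By population, the mean difference between the numbers for Fos was +1.67 in CD69- DP, +2.54 in CD69+ DP and +2.66 in SP4. For Fosb it was +1.12, +1.41 and +2.15, for Jun +2.24, +2.65 and +2.88, and for Junb +0.56, +0.78 and +0.95. These values are given as a description, because they split the contrast that chose the members.

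The step from CD69- DP to CD69+ DP, taken as the mean over genotypes and over both numbers, did not use the contrast that chose the members. Fits within 1 number split the arrays by that contrast and were chosen after seeing the data. They are given as a description. In them each genotype and population had 1 array, so their SE and p-values reflect how a step varied between the 3 genotypes, not between replicate arrays. Ier2 rose by log2 +0.72 (SE 0.20, limma adjusted p = 0.041) and was higher in 6 of 6 pairs of the same genotype and number. Of the 22180 genes, 1049 were called lower at this step, with 0 members among them. Ier2 was the 1 member called higher, where 3.06% of all genes were. Without the block this call was lost in 9 of 12 fits that left out 1 array (adjusted p up to 0.12). With the replicate number as a block 2 members were called (4.68% of genes), Ier2 (adjusted p = 0.00048) and Junb (+0.52, SE 0.08, adjusted p = 0.00044, 6 of 6 pairs), which without the block was at an adjusted p of 0.31. Both were called within number 1 as well (Ier2 +0.89, adjusted p = 0.0013, and Junb +0.41, adjusted p = 0.013), where 5.85% of genes were. Within number 2, with 1.64% of genes called higher, 4 members were: Fos (+0.77, SE 0.14, adjusted p = 0.0087), Fosb (+0.73, SE 0.13, adjusted p = 0.0082), Junb (+0.63, SE 0.11, adjusted p = 0.0080) and Ier2 (+0.55, SE 0.11, adjusted p = 0.018). Fos within number 1 was at -0.10 (SE 0.21, adjusted p = 0.83). Fos, Fosb and Jun were dim on number 1 arrays (medians of 57.6, 56.3 and 64.7), where a fold change can be understated. Whether it was understated here was not tested. On number 1 Fosb was at +0.44 and Jun at +0.006, while Ier2, at 41.7 to 54.9 on the CD69- DP arrays, was at +0.89. A flat step there does not show that a rise was absent. Jun and Dusp1 passed in none of these fits, with +0.21 (SE 0.17) and +0.15 (SE 0.08) under the block. The median of the 8 members was +0.27, beside +0.01 for all genes.

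From CD69+ DP to SP4 0 members were called without the block, with 0 at an unadjusted p under 0.05, while 4.41% of genes were called higher. Under the block 1 member was called (7.66% of genes), Jund at +0.37 (SE 0.10, adjusted p = 0.019), which was higher in SP4 in 6 of 6 pairs. Without the Gli3+/- SP4 array numbered 1 its adjusted p was 0.057, an alternative chosen after seeing the data. Within number 1 0 members passed (5.63% of genes). Within number 2 1 member passed (4.15% of genes), Fosb at +0.68 (SE 0.13, adjusted p = 0.0099), against -0.06 (SE 0.14) within number 1.

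Over both steps together, SP4 minus CD69- DP, Ier2 was called in all 4 fits. It was at +0.85 (SE 0.20, adjusted p = 0.013) without the block, as the only member among 5.94% of genes called higher, at +0.99 within number 1 and at +0.71 within number 2. Under the block 4 members were called (7.91% of genes). They were Ier2, Junb (+0.57, SE 0.08, adjusted p = 0.00020), Fosb (+0.90, SE 0.22, adjusted p = 0.012) and Dusp1 (+0.29, SE 0.08, adjusted p = 0.029), the last with an adjusted p of 0.11 without the Gli3+/- SP4 array numbered 1. Within number 1 the members called were Ier2 and Junb (+0.38, SE 0.10, adjusted p = 0.021), beside 7.73% of genes. Within number 2 6 of 8 were called (4.07% of genes), led by Fosb (+1.41, SE 0.13, adjusted p = 5.6e-05) and Fos (+1.07, SE 0.14, adjusted p = 0.00071), then Junb (+0.77), Jun (+0.72, adjusted p = 0.0081), Ier2 and Jund (+0.44, adjusted p = 0.033). Within number 1 Fos was at +0.08 (SE 0.21) and Jun at +0.08 (SE 0.14). Both genes were dim on number 1 arrays, where a fold change can be understated, which was not tested. No p-value is given for how the steps differed between the numbers, because that comparison uses the contrast that chose the members. In its fit 0 of 8 members were called at each of the 3 steps, but for the same reason nothing is read from that count. It does not show that the steps were alike on both numbers. A call of Fos and Jun within number 2 alone is not evidence that their steps depend on the number. Fosl2 was higher in SP4 in 6 of 6 pairs, at +0.25 (SE 0.10 under the block, adjusted p = 0.11).

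**Figure D3:**
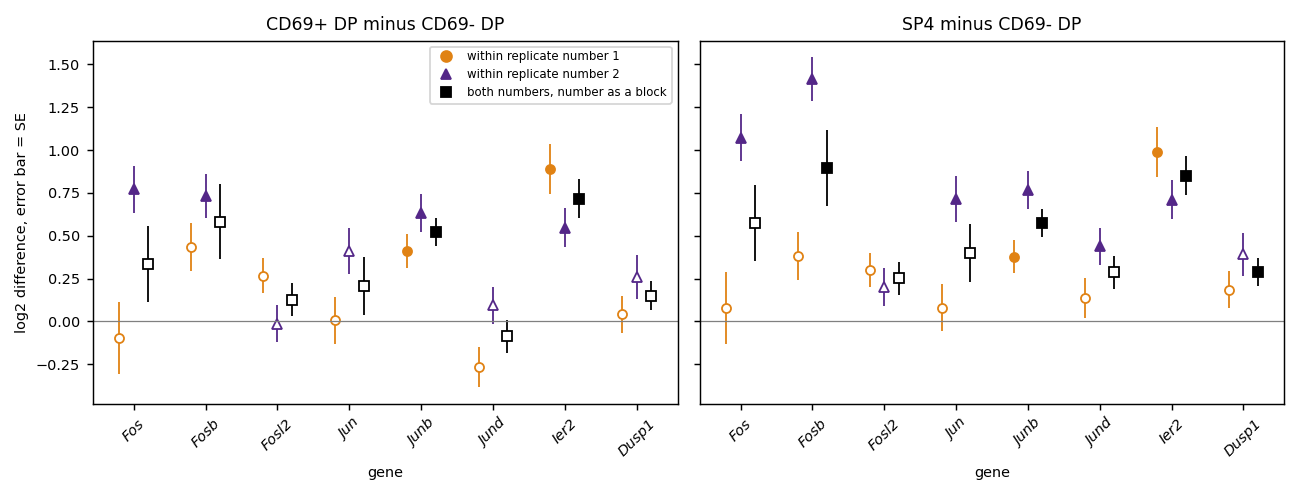
Difference in log2 intensity from CD69- DP to CD69+ DP (left) and to SP4 (right), averaged over genotypes, with its SE, within number 1 (circles), within number 2 (triangles) and over both with the number as a block (squares). Filled symbols mark an adjusted p under 0.05. Ier2 and Junb are filled in all 3 fits of both panels, while Fos is filled within number 2 only. A filled symbol in 1 number and an open one in the other is not a test of a difference between them.

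At the first step the 4 largest differences among the other immediate early genes were above that of any member. Nr4a1 rose by +2.38 (SE 0.13), Nr4a3 by +2.34 (SE 0.22), Egr1 by +2.14 (SE 0.13) and Egr2 by +1.74 (SE 0.12), all nuclear receptors or zinc finger factors induced by T-cell receptor signalling, with adjusted p-values of 4.2e-05 or less. Egr1 was at 62.6 to 91.1 in CD69- DP and 290.8 to 520.8 in CD69+ DP, with no overlap between these populations. Of the 34 other immediate early genes 13 were called higher and 1, Socs3, lower. Of the 11 bZIP genes 1 was called higher, and of the 10 heat shock genes 3.

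Summed markers of neutrophils, of macrophages and dendritic cells, and of NK cells were higher in SP4 than in CD69- DP. Of the 6 neutrophil markers none was at 0, and their summed intensity was 274 to 296 in CD69- DP, 279 to 600 in CD69+ DP and 433 to 1174 in SP4. S100a8 was at 16.8 to 28.1 in CD69- DP and at 126.2 to 618.9 in SP4, while Ly6g stayed at 18.2 to 23.1 and Elane at 72.3 to 92.5 in SP4. The sum over 5 macrophage and dendritic cell markers was 251 to 285 in CD69- DP and 334 to 654 in SP4. The sum over 3 NK cell markers was 131 to 164 in CD69- DP and, in SP4, 379 to 538 on number 1 arrays and 909 to 1163 on number 2 arrays. This followed Tyrobp, an adaptor of myeloid and NK cells (288 to 456 on number 1 and 839 to 1061 on number 2 arrays in SP4), while Ncr1 stayed at 36.8 to 60.3. Their part in the SP4 values of the members was not tested. In bulk RNA fewer cells of a type and less RNA per cell cannot be told apart.

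Between genotypes 0 of 8 members were called. For Gli3-/- minus WT as the mean of populations (0.0135% of genes called) the members ran from -0.29 (SE 0.20) for Ier2 to +0.17 (SE 0.79) for Fos, with 0 members at an unadjusted p under 0.05 without the block and 1, Ier2 (SE 0.11, adjusted p = 0.83), with it. Of all 22180 genes, 843 were under that unadjusted p without the block and 1291 with it. Ier2 was lower in Gli3-/- in 5 of 6 pairs. In single populations 0 of 8 were called in CD69- DP (0.0135% of genes), in CD69+ DP (0.00902%) and in SP4 (0.0135%), with 0 members under 0.05 unadjusted without the block. With the block 1 was, Junb in SP4 (-0.31, SE 0.14, adjusted p = 0.69), beside 1590 of all 22180 genes in SP4. For Gli3+/- minus WT (0% of genes) the members ran from -0.27 (SE 0.20) for Ier2 to +0.46 (SE 0.79) for Fos, with 0 at an unadjusted p under 0.05 without the block and 3 with it. These were Junb (+0.23, SE 0.08, adjusted p = 0.82, higher in 6 of 6 pairs), Ier2 (SE 0.11, adjusted p = 0.84) and Jun (+0.37, SE 0.17, adjusted p = 0.86). Nothing is read from this unadjusted count, as its share over all genes is not given here. The SE of Fos (0.79) and Jun (0.87) without the block was larger than either of their mean differences between genotypes.

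In Gli3-/- minus WT, Junb and Fosb each had the same sign on both numbers within each population, but not in all populations. Junb was at +0.17 and +0.06 on numbers 1 and 2 in CD69- DP, at -0.11 and -0.15 in CD69+ DP, and at -0.22 and -0.40 in SP4. Fosb ran the other way, at -0.24 and -0.31 in CD69- DP, -0.17 and -0.51 in CD69+ DP, and +0.07 and +0.14 in SP4. The change of this difference from CD69- DP to SP4 was -0.42 for Junb (SE 0.65 without the block, 0.20 with it) and +0.38 for Fosb (SE 1.38 and 0.54), with an adjusted p of 1 for both genes in both fits, and 0 of 8 members passed that test (0% of genes) or the one from CD69- DP to CD69+ DP (0% of genes). Across all genes 684 and 458 were under an unadjusted p of 0.05 in these tests, and 0 of the members were.

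**Figure D4:**
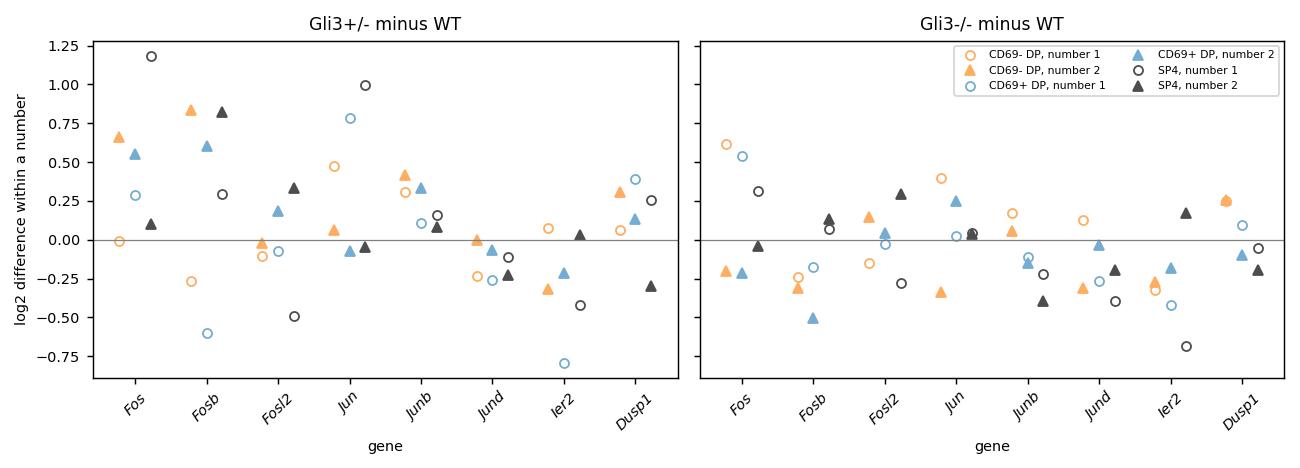
Difference in log2 intensity from WT of Gli3+/- (left) and Gli3-/- (right) within each population (colour) and replicate number (open circles 1, filled triangles 2), for each member. Points of a member spread on both sides of 0 except Junb in Gli3+/-, above 0 in 6 of 6 pairs, and Jund in Gli3+/-, below 0 in 6 of 6.

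The members followed one another unequally across the 18 arrays, which may share embryos or sorts in ways the labels do not give. Pearson's r of log2 values was 0.97 for Jun with Dusp1 and for Fos with Dusp1, 0.96 for Fos with Jun and 0.93 for Fosb with Junb. Once the mean of each number was taken off, these were 0.72, 0.77, 0.70 and 0.82. The values before centring include the difference between the numbers, which chose the members, so nothing is read from their height. Ier2 was at 0.52 with both Jun and Fos, and at 0.19 and 0.20 once the numbers were centred, but kept 0.63 with Junb and 0.68 with Fosl2.

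**Figure D5:**
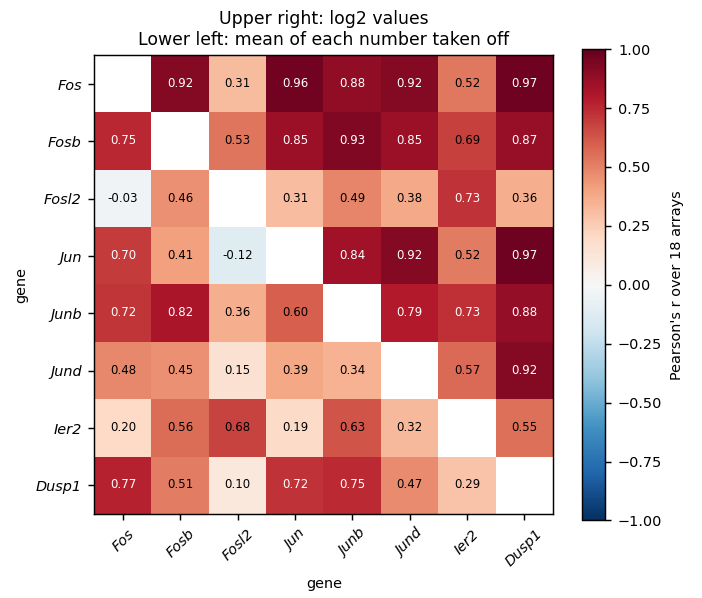
Pearson's r of log2 intensity between members over 18 arrays, as measured (upper right) and after the mean of each replicate number was taken off (lower left). Jun with Dusp1 goes from 0.97 to 0.72 and Jun with Ier2 from 0.52 to 0.19. The upper right includes the difference between the numbers, which chose the members.

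Outside the members, and among genes at or above the median intensity, the pattern most like that of Jun over 18 arrays was that of Ppp1r15a (r = 0.98), then Abt1 and Snord118 (0.95 each), Zfand5 and Klf6 (0.93 each). Ppp1r15a was also nearest to Fos (0.97), followed by Mir17 and Snord118 (0.94 each) and by Zfp36, an RNA-binding protein that speeds the decay of short-lived transcripts, and Klf6 (0.92 each). Junb was nearest to Sik1 (0.93), a kinase gene, Rgs2, a regulator of G-protein signalling, and Mir17 (0.91 each), Snord73a and Siah2 (0.89 each). These likenesses over 18 arrays also include the difference between the numbers. It was +1.79 for Ppp1r15a, +1.55 for Snord118 and +1.06 for Klf6. With the numbers centred, the nearest to Jun were Neurl3 (0.75) and Hspa1b (0.73), the nearest to Fos were Accs (0.82) and Ppp1r15a (0.79), and those nearest to Junb were Erdr1 and Pou2af1 (0.87 each), Ccl5 (0.86) and Nfkb2 (0.85).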

How the data were processed

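Total RNA of sorted thymocytes was hybridised to Affymetrix Mouse Gene 2.0ST arrays, 2 for each of 9 groups of genotype and population. The authors deposited 1 normalised intensity per transcript cluster and array on a linear scale, made with oligo and RMA per the submitters' processing notes, with versions, annotation and genome build not given in the sources used here. Array medians (59.3 to 65.8) showed that the deposited values were not on a log scale, as had been assumed, so log2 was taken here, with no further normalisation. RMA brings arrays to a shared distribution, so a change common to most genes would not be seen. The columns of no listed sample numbered 0.

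Of 41345 rows, 23521 carried 1 gene symbol in the platform annotation. Symbols were checked against RefSeq names for GRCm38.p6, which changed 0. For a gene with several rows the row with the highest mean was kept, giving 22180 genes. The 1820 rows naming several genes and the 16004 naming no gene did not enter the tests.

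Log2 values of the 18 arrays were modelled by 9 group means in limma (version 3.58.1, R 4.3.3, lmFit and eBayes, 9 residual and 4.734 prior degrees of freedom), after the moderated statistic that the methods name. P-values were adjusted by Benjamini-Hochberg over the 22180 genes, and a gene was called where the adjusted value was under 0.05. Each step or genotype difference was also fitted with the replicate number as a block, and the population steps also within each number. Within a number each genotype and population had 1 array, so the error of these fits came from how a step varied between genotypes. Arrays with the same number and genotype share a name in the labels, which do not say what it stands for. As a check, deviations from the group means correlated between groups of the same number with r from 0.08 to 0.55 (36 pairs, 34 over 0.1), and with r from 0.13 to 0.55 in the 18 pairs that share a genotype or a population. How the difference between numbers varied by population and by genotype was also fitted. In these fits 0 of 8 members were called, but no p-values are given and nothing is read from the count, since that contrast chose the members. Scripts were tested on simulated data.

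The members and the lists of other genes were chosen with earlier results of these data known. Genes named were the members, up to 4 genes a list with the largest differences between numbers or over a population step, and for Jun, Fos and Junb the 5 most correlated genes. Marker genes, Xist and Eif2s3y were named after their values were seen. Alternatives were quantile and cyclic loess normalisation, genes at or above the median intensity only, the mean of all rows of a gene, only the groups compared, a mean trend of the variance, and each array left out. Fits within a number and without 1 array under the block were chosen after seeing the data. Other assays of the study were not used.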

Additional observations from a re-analysis of the deposited data

How the results depend on the processing

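Of 368 values of single members under alternatives that kept all arrays, 343 kept their direction and side of the threshold, 19 passed only in the alternative, 0 only in the fit without the block, and 6 changed direction. The replicate block raised the members called higher from 1 to 2 from CD69- DP to CD69+ DP, from 0 to 1 from CD69+ DP to SP4, and from 1 to 4 from CD69- DP to SP4. Without the Gli3+/- SP4 array numbered 1 the block gave 2, 0 and 3, within number 1 the counts were 2, 0 and 2, and within number 2 they were 4, 1 and 6. The block called 0 members between genotypes. From CD69- DP to CD69+ DP, Fos turned to -0.10 within number 1, and within number 2 Fosl2 turned to -0.012 and Jund to +0.095. From CD69+ DP to SP4, Fosb turned to -0.056 and Junb to -0.035 within number 1, and Junb to -0.047 with quantile normalisation. The difference of Jund between numbers was +0.63 with the mean of its rows, and +0.34 (SD 0.17) for its second row alone. Leaving out 1 array in turn, without the block, unbalances the numbers. The call of Ier2 from CD69- DP to CD69+ DP was kept in 3 of 12 such fits (without Gli3-/- CD69- DP 2, Gli3+/- CD69+ DP 1 or WT CD69- DP 2). It was lost without each other array of these groups. Over the 12 fits the difference of Ier2 ran from +0.57 to +0.86. Its call from CD69- DP to SP4 was kept in 12 of 12 (adjusted p from 0.0053 to 0.049). Values that changed sign in these fits ranged, from CD69- DP to CD69+ DP, from -0.16 to +0.83 for Fos, -0.31 to +0.72 for Jun, -0.28 to +0.11 for Jund and -0.065 to +0.37 for Dusp1. From CD69+ DP to SP4 they ranged from -0.28 to +0.76 for Fos, -0.10 to +0.73 for Fosb, -0.35 to +0.73 for Jun, -0.12 to +0.22 for Junb, -0.0063 to +0.27 for Ier2 and -0.089 to +0.37 for Dusp1. From CD69- DP to SP4 Jun ranged from -0.14 to +0.94. For Gli3-/- minus WT Fos ranged from -0.35 to +0.69 and Junb from -0.28 to +0.065, and for Gli3+/- minus WT Fos ranged from -0.060 to +0.99. The change of the difference between numbers ranged from -0.16 to +0.67 for Fosb (CD69- DP to CD69+ DP) and from -0.28 to +0.14 for Fosl2 (CD69- DP to SP4). The causes of these changes were not tested. Dim values have little signal over background, where a fold change can be understated, which was also not tested. On number 1 arrays the median was 57.6 for Fos, 56.3 for Fosb, 64.7 for Jun and 78.6 for Ier2, with single arrays up to 105.2, 76.0, 124.9 and 126.5.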
